A study of Mus musculus with 6 samples.

Results

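The B and plasma cell genes were 9 genes of the antibody-making lineage, taken by symbol from the 28752 genes of the deposited table. They were the receptor and surface genes Cd79a, Cd79b and Ms4a1, the antibody assembly genes Jchain and Mzb1, the antibody constant genes Igha, Ighm and Igkc, and the B cell coactivator Pou2af1. They were read as a gauge of B-lineage RNA in each of 6 mouse samples, 3 per group. The labels call all 6 samples intestinal crypt stem cells. Their protocols describe crypt-villus organoids, small cultured epithelial structures, grown from Lgr5-GFP+ intestinal stem cells, which the study's methods obtain by fluorescence-activated sorting. In Lgr5-GFP mice the green fluorescent protein is driven from the Lgr5 locus and marks the stem cells at the crypt base. The vector group has the genotype label WT and the circEZH2_005 group the label circEZH2_005 overexpression, a circular RNA delivered by adenovirus. The labels give no strain, age or number of animals for these samples. Infection lasted 72 h in the labels' protocol. Both groups, controls included, then went through hypoxia/reoxygenation (H/R), with 4 h at 2% O2 and 5% CO2, so that every difference here lies between 2 groups of H/R samples. The comparison asks whether forced circEZH2_005 changed the RNA of these cultures under H/R. The table has a row per gene and none for the circle, so its own level was not checked here.

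B cells carry a membrane antibody held by the Cd79a and Cd79b signalling chains. When they mature into plasma cells they pour out secreted antibody. The gut wall is the main home of plasma cells that make IgA, the antibody of mucosal surfaces. IgA units are joined in pairs or larger groups by the J chain, taken up by the polymeric immunoglobulin receptor on the underside of epithelial cells and released into the gut lumen. None of the 9 genes is a marker of the gut epithelium.

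Library totals lay between 71506487 and 79919893 counts. A floor of 3 counts corresponded to 0.0377 to 0.0419 counts per 1000000 of a library (CPM), where TMM set the effective library size. The epithelial marker Epcam lay between 1287 and 1618 CPM in the 6 samples and the stem cell marker Lgr5 between 7.70 and 18.3 CPM. The common leukocyte antigen Ptprc, which epithelial cells lack, was also present in every sample. It was at 22.8, 78.6 and 31.9 CPM in vector samples 1, 2 and 3 and at 184.4, 140.3 and 103.4 CPM in circEZH2_005 samples 1, 2 and 3. Libraries labelled as stem cells thus also held RNA of leukocyte genes, although the starting cells were sorted for Lgr5-GFP. In such bulk samples fewer cells of a type and less RNA per cell cannot be told apart.

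The 9 genes lie on 8 chromosomes of mm10. Cd79a is at chr7:24897381-24902197 on the plus strand and Cd79b at chr11:106311341-106314762 on the minus strand. Ms4a1 is at chr19:11249675-11266241 and Jchain at chr5:88519809-88527891, both on the minus strand. Igha at chr12:113254830-113260236 and Ighm at chr12:113418558-113422730 share the heavy-chain locus on the minus strand. Igkc is at chr6:70726435-70726966 and Pou2af1 at chr9:51213708-51240080, both on the plus strand. Another annotated gene overlaps 4 of the 9, and strand-specific counting is not stated, so reads there may be shared. These were Ms4a1 with an antisense RNA on the other strand, Mzb1 with the protein-coding gene SPATA24 on its own strand, Igkc with a long noncoding RNA and Pou2af1 with an RNA inside an intron. The 3 constant genes cover only the constant part of an antibody, which is common to all B-lineage cells of a class, and not the variable segments.

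Promoter sequence was at hand from RefSeq (GRCm38.p6) for 3 of the 9 genes, Jchain, Cd79a and Pou2af1. It is shown so that the starts of a plasma cell, a B cell and a transcription gene can be read side by side. Each run is 5′ to 3′ on the strand of the gene and ends just before the RefSeq start for Jchain and Pou2af1 and just before the start of the deposited gene model for Cd79a. It holds 250 bases for Jchain (chr5:88527898-88528147, minus strand) and Pou2af1 (chr9:51213440-51213689, plus strand). It holds 134 bases for Cd79a (chr7:24897247-24897380, plus strand), where the other 116 bases of the window lie inside the deposited gene model. Capitals mark a match to a motif of B cell transcription factors.
Jchain: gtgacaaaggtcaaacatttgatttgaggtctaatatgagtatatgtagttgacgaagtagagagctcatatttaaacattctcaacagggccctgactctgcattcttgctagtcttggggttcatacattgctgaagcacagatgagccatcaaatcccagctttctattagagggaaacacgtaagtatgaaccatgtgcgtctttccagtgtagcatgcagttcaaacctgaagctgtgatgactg
Cd79a: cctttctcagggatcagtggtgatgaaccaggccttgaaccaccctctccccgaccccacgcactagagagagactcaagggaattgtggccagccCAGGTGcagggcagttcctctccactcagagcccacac
Pou2af1: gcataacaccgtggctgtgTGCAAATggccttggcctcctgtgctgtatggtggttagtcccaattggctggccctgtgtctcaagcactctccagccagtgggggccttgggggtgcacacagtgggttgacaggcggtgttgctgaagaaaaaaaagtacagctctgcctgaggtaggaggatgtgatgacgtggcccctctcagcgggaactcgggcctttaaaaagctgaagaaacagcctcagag

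The letters were searched on both strands of the 250-base windows. The octamer ATGCAAAT, bound by the Oct factors that the Pou2af1 protein assists, was in none of the 3 windows and in 1.6% of 32851 promoters. Its last 7 bases, TGCAAAT, which overlap it, were in the Pou2af1 window at positions -231 to -225 from the RefSeq start and in 3.56% of promoters. CAGGTG, an E-box of the E2A type, was in the Cd79a window at -154 to -149 and in 17.2% of promoters. AGGAAGT, an ETS core, was in the Cd79a window at -55 to -49, inside the stretch left out above, and in 7.69% of promoters. None of these letters was found in the Jchain window. Such matches are a description of the sequence and not binding sites.

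All 9 genes were detected in all 6 samples, with 18 counts at the least and 17392 at the most. Per length, and in FPKM as deposited, the constant genes of the kappa light chain and of IgA stood highest. In the vector samples the kappa light-chain constant gene Igkc was at 38.3 ± 13.7 FPKM (mean ± SD, n = 3) and the IgA heavy-chain constant gene Igha at 12.7 ± 5.83 FPKM. The IgM constant gene Ighm was at 3.28 ± 0.949 FPKM and Jchain at 2.70 ± 1.04 FPKM, and these neighbours overlapped in their samples. Lower still were Cd79b at 0.891 ± 0.347, Cd79a at 0.388 ± 0.229, Mzb1 at 0.325 ± 0.0688, Pou2af1 at 0.196 ± 0.0999 and Ms4a1 at 0.122 ± 0.0925 FPKM. Among these 5, each gene overlapped the next one down. In the circEZH2_005 samples Igkc was at 103.5 ± 86.0, Igha at 40.8 ± 31.9, Jchain at 9.89 ± 8.15 and Ighm at 4.51 ± 2.84 FPKM. There the ranges of Igkc and Igha overlapped, as did those of Jchain and Ighm, although within each of the 6 samples Igkc was the higher of the first pair.

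Mean CPM was higher with circEZH2_005 for all 9 genes, but no gene passed the test across the genome. Of the 18348 genes tested by edgeR, 2.69% were higher and 0.986% lower at an adjusted p under 0.05. Of the 9 members 0 were called in either direction, with adjusted p-values from 0.0599 for Cd79b to 0.472 for Ighm. At an unadjusted p under 0.05 there were 5 of 9, Cd79b, Jchain, Igha, Igkc and Pou2af1. The same 5 passed a fold and p threshold, a fold change over 2 with an unadjusted p under 0.05, against 6.22% of all genes in that direction. None of the 9 was under a fold change of 0.5, against 1.34% of all genes. DESeq2 called 2 members higher at an adjusted p under 0.05, Cd79b and Pou2af1, where it called 9.25% of all genes higher. The median log2 fold change was 1.43 for the members and 0 for all genes tested.

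The samples of one group differed widely. circEZH2_005 sample 1 was the highest of all 6 samples for 9 of 9 genes, and circEZH2_005 sample 3 the lowest of its group for 9 of 9. A peak in sample 1 was not particular to the members. Among lists described below, 10 of 10 T cell, 7 of 7 pan-leukocyte and 8 of 10 myeloid markers peaked there, and 1 of 8 epithelial genes. The share of all genes with that peak was not counted. Sample 1 held 41.4% to 76.6% of the counts that its group had for a member, where it held 33.1% of the group's counts over all genes. Its level was 1.55 to 13.1 times that of sample 3, with a median of 4.63 times. Among the vector samples, sample 2 was the highest for 9 of 9 genes. circEZH2_005 sample 3 lay below vector sample 2 for 6 genes and below vector sample 3 for 3 genes. The circEZH2_005 samples all lay above every vector sample for 3 of the 9 genes, Cd79b, Jchain and Mzb1, where 16.4% of all genes tested did so. Without circEZH2_005 sample 1, the members past the fold and p threshold were 3, Cd79b, Jchain and Igha, and 0 had an adjusted p under 0.05.

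**Figure D1:**
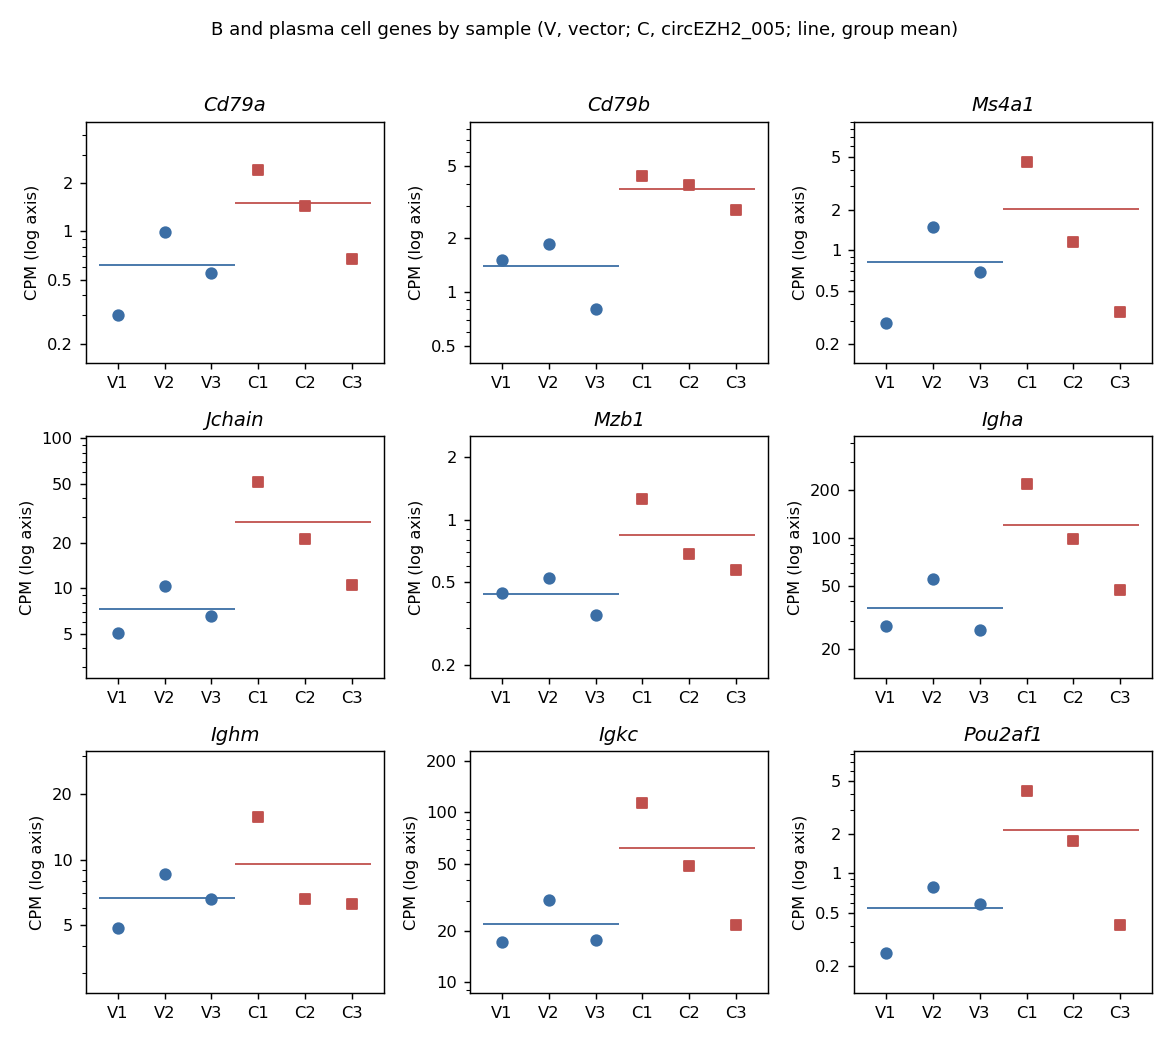
CPM of each of the 9 genes in each sample on a log axis, 1 panel per gene, with vector samples as blue circles (V1 to V3), circEZH2_005 samples as red squares (C1 to C3) and a line at each group mean. C1 is the highest point in all 9 panels and V2 the highest vector point in all 9, and the groups separate only for Cd79b, Jchain and Mzb1.

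Among the receptor and surface genes, Cd79b gave the most even difference. Cd79a and Cd79b are the paired chains that carry the signal of the B cell receptor. Cd79b was at 1.51, 1.85 and 0.805 CPM for vector samples 1 to 3 and at 4.43, 3.94 and 2.86 CPM for circEZH2_005 samples 1 to 3. Its groups did not overlap, and its 3 circEZH2_005 samples lay within 1.55 times of each other. The log2 fold change came to 1.43 ± 0.34 (SE), at an adjusted p = 0.0599 by edgeR. Its partner Cd79a was at 0.304, 0.99 and 0.549 CPM with the vector and at 2.41, 1.44 and 0.67 CPM with circEZH2_005. Sample 3 of the circEZH2_005 group fell between vector samples 2 and 3, so the groups overlapped, and the log2 fold change came to 1.29 ± 0.58, at an adjusted p = 0.226. Ms4a1 encodes CD20, a surface protein of mature B cells that plasma cells lack. It was at 0.29, 1.49 and 0.69 CPM with the vector and at 4.58, 1.16 and 0.349 CPM with circEZH2_005. Sample 1 alone held 76.6% of its group's counts, and the other 2 circEZH2_005 samples lay below vector sample 2. The log2 fold change of Ms4a1 was 1.3 ± 0.91 (adjusted p = 0.44) and turned to -0.13 without circEZH2_005 sample 1.

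The genes of antibody assembly were less alike. Jchain encodes the chain that joins IgA and IgM units. It was at 5.07, 10.4 and 6.55 CPM for vector samples 1 to 3 and at 51.5, 21.3 and 10.5 CPM for circEZH2_005 samples 1 to 3. The groups did not overlap, but circEZH2_005 sample 3 and vector sample 2 nearly met. The log2 fold change came to 1.92 ± 0.55, at an adjusted p = 0.0892, and 1.12 without circEZH2_005 sample 1. Mzb1, at chr18:35647267-35649367 on the minus strand, encodes an endoplasmic reticulum protein that helps antibody folding in marginal zone B cells and plasma cells. It was at 0.442, 0.522 and 0.345 CPM with the vector and at 1.26, 0.685 and 0.572 CPM with circEZH2_005. Its groups did not overlap either, on counts of 27 to 100, and the log2 fold change came to 0.94 ± 0.43, at an adjusted p = 0.232.

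The constant genes carried most of the B-lineage counts. Igha encodes the constant part of the IgA heavy chain. It was at 27.8, 55.3 and 26.4 CPM with the vector and at 218.6, 99.2 and 47.2 CPM with circEZH2_005. Only circEZH2_005 sample 3 fell below a vector sample, sample 2, and the log2 fold change came to 1.74 ± 0.54, at an adjusted p = 0.107. Igkc encodes the constant part of the kappa light chain, used by antibodies of every class. It was at 17.4, 30.7 and 17.8 CPM with the vector and at 114.1, 48.3 and 21.8 CPM with circEZH2_005. Its samples stood in nearly the same order as those of Igha, at a log2 fold change of 1.48 ± 0.54 (adjusted p = 0.154). Without circEZH2_005 sample 1 the log2 fold change was 0.67 for Igkc and 1.00 for Igha. Ighm encodes the constant part of IgM, the class of naive B cells. It was at 4.87, 8.55 and 6.60 CPM with the vector and at 15.8, 6.61 and 6.28 CPM with circEZH2_005. The other 2 circEZH2_005 samples lay within the range of the vector samples. Its log2 fold change of 0.52 ± 0.39 was the smallest of the 9 (adjusted p = 0.472) and was -0.053 without that sample.

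Pou2af1 encodes a coactivator that B cells need to form germinal centres. It was at 0.249, 0.789 and 0.588 CPM with the vector and at 4.19, 1.75 and 0.405 CPM with circEZH2_005. Sample 3 of the circEZH2_005 group lay below 2 vector samples, while sample 1 lay at 10.4 times sample 3. The log2 fold change was 1.96 ± 0.79, the largest of the 9, with an adjusted p = 0.185 by edgeR and an adjusted p = 0.0389 by DESeq2. Without circEZH2_005 sample 1 it was 0.99.

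**Figure D2:**
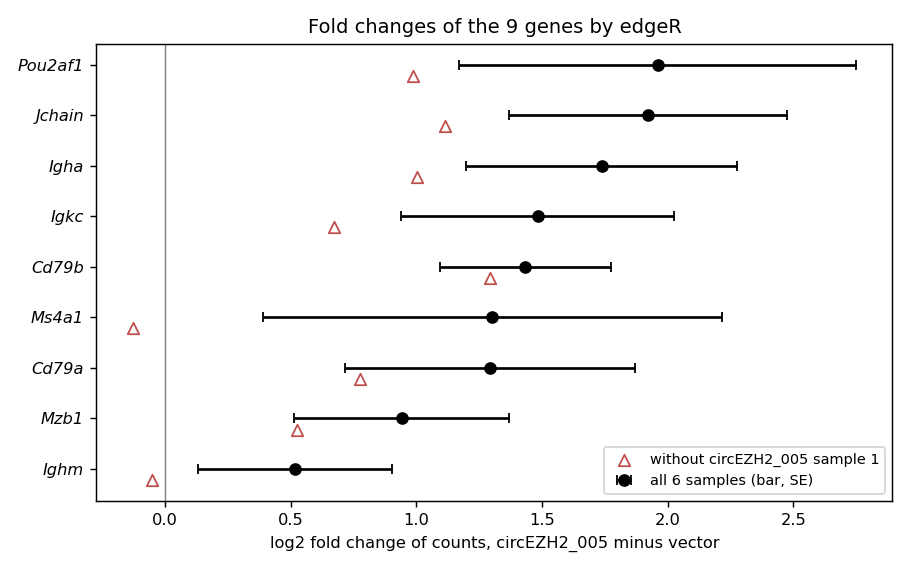
Log2 fold change of counts, circEZH2_005 minus vector, for each of the 9 genes by edgeR, with all 6 samples (black points, bars are SE) and without circEZH2_005 sample 1 (open triangles). All 9 points lie above 0 with 6 samples, and 2 triangles, Ms4a1 and Ighm, lie below 0.

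The make-up of the antibody RNA was compared within samples. Of 4 ratios between genes, only that of Igha to Ighm separated the groups. It was 4.05, 4.58 and 2.83 in FPKM for vector samples 1 to 3 and 9.82, 10.6 and 5.33 for circEZH2_005 samples 1 to 3. The mean was 3.82 ± 0.898 (SD, n = 3) against 8.59 ± 2.85, a log2 difference of 1.14, with an exact two-sided permutation p = 0.1 and 0.4 after adjustment over the 4 ratios. With 3 samples against 3, an exact p cannot go below 0.1. Samples 1 and 2 of the circEZH2_005 group, which had the highest summed level of the 9 genes, also had the highest ratios. Vector samples 1 and 3, with the lowest sums, had the lowest. The order was not the same throughout. circEZH2_005 sample 3 had a lower sum than vector sample 2 (90.7 against 110.6 CPM) but a higher ratio. circEZH2_005 sample 1 had a higher sum than sample 2 of its group (416.8 against 184.4 CPM) but a lower ratio. The part of the amount of B-lineage RNA in the ratio was not tested. The ratio of Igkc to the 3 lambda constant genes Iglc1, Iglc2 and Iglc3 in counts ran from 10.8 to 23.0 over the 6 samples (exact permutation p = 0.2, adjusted 0.4). Jchain to Igha in FPKM stayed between 0.192 and 0.263 in all 6 samples (exact permutation p = 0.4, adjusted 0.533). That narrow range held while Igha itself went from 26.4 to 218.6 CPM. Mzb1 to Cd79a ran from 0.571 to 1.80 in FPKM (exact permutation p = 0.6, adjusted 0.6).

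Counted over the heavy-chain constant genes, IgA was the main class in every sample. Igha took 66.0%, 76.7% and 66.2% of these counts for vector samples 1 to 3 and 84.0%, 85.6% and 77.8% for circEZH2_005 samples 1 to 3. The Wilson 95% interval of a sample's share was at most 1.68 percentage points to a side, for counting error only. The groups did not overlap, at 69.6% ± 6.12 against 82.5% ± 4.12 (exact permutation p = 0.1). Ighm took 11.6%, 11.9% and 16.6% with the vector and 6.05%, 5.71% and 10.4% with circEZH2_005 (exact permutation p = 0.1). Ighg1, of the IgG1 class, took 14.1%, 3.25% and 6.35% with the vector and 0.802%, 1.15% and 3.91% with circEZH2_005, and overlapped (exact permutation p = 0.2). Ighg2b kept a share of 4.19% to 5.13% in all 6 samples. The shares of a sample sum to a fixed whole, so these are not separate results.

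**Figure D3:**
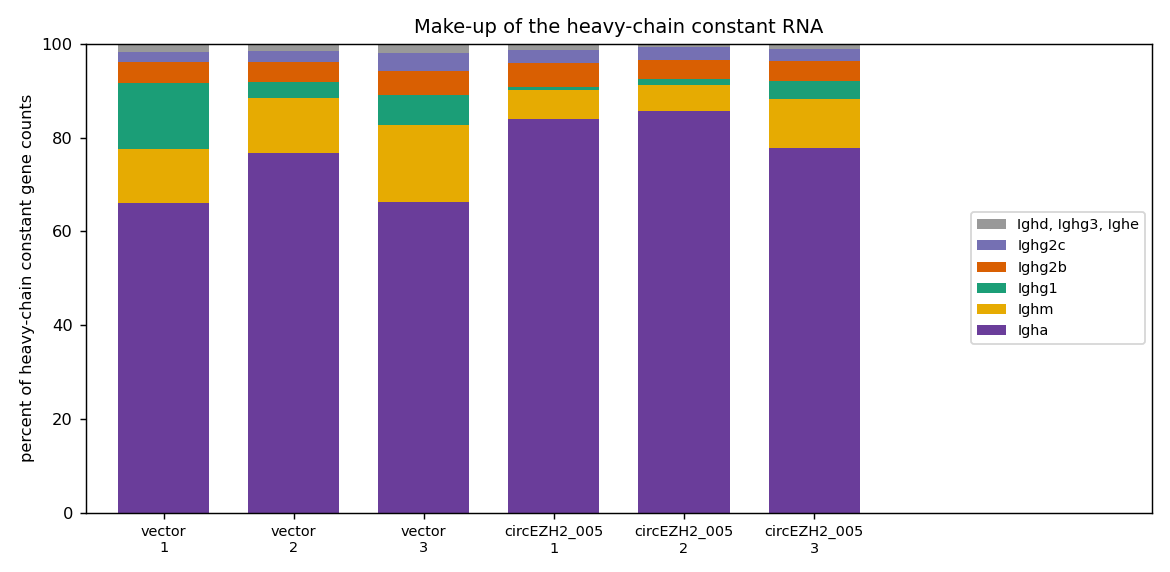
Share of the counts of all heavy-chain constant genes that fell on each gene, in percent, as 1 stacked bar per sample from 0 to 100. Igha fills 66.0% to 76.7% of the vector bars and 77.8% to 85.6% of the circEZH2_005 bars.

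Beyond the 9 genes, 56 other genes of the B lineage and its surroundings were listed in 5 groups by role. Of these 54 were in the table and 51 could be tested. At an adjusted p under 0.05 by edgeR, 1 was higher and 0 were lower, a share of 1.96% higher beside 2.69% of all genes. Past the fold and p threshold 10 were higher (19.6%, beside 6.22% of all genes) and 1 was lower. The log2 fold change was above 0 for 39 and below 0 for 12, with a median of 0.76. The groups were fully apart, with circEZH2_005 higher, for 9 of the 51, or 17.6%, close to the 16.4% of all genes. As for the members, circEZH2_005 sample 1 was often the highest sample, for 35 of the 54 genes in the table.

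Other receptor and surface genes of B cells were described in the same way. Of 12 tested, 0 passed the adjusted test, 3 were higher and 1 lower past the fold and p threshold, and the median log2 fold change was 1.04. The lower one was Ly6d, also made by epithelia, at -1.15 ± 0.38 on the log2 scale (adjusted p = 0.125), with all 3 circEZH2_005 samples below the vector samples. The most abundant of the 12 by mean level were Cd37, a tetraspanin also found on other leukocytes, and Cd72, a coreceptor of B cells. Cd37 was at 1.45, 5.26 and 2.29 CPM with the vector and at 13.2, 7.15 and 6.35 CPM with circEZH2_005 (adjusted p = 0.109). Cd72 was at 0.87, 2.85 and 1.87 CPM and at 6.64, 5.52 and 4.90 CPM (adjusted p = 0.0649), and neither overlapped between groups. Pax5, the factor that fixes B cell identity, ran from 0.128 to 0.787 CPM with the vector and was at 2.80, 0.994 and 0.181 CPM with circEZH2_005.

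Of 11 transcription and signalling genes tested, 0 passed the adjusted test, 2 were higher past the fold and p threshold and the median log2 fold change was 0.76. The 2 higher genes were Ciita and Ebf1. Ebf1 had 3, 8 and 8 counts with the vector and 80, 43 and 17 with circEZH2_005, so its groups did not overlap, at low counts. The log2 fold change of Ebf1 was 2.83 ± 0.70 (adjusted p = 0.0659). The most abundant genes of this list are not made by B cells alone. Ciita, the coactivator of MHC class II genes, was at 42.5, 68.2 and 32.4 CPM with the vector and at 69.3, 113.8 and 113.2 CPM with circEZH2_005, a log2 fold change of 1.05 ± 0.29 (adjusted p = 0.0856). Its highest value was not in circEZH2_005 sample 1. The adaptor Blnk lay between 28.5 and 36.1 CPM in all 6 samples (adjusted p = 0.636). Among 8 other antibody constant genes tested, 0 passed the adjusted test and 2 were higher past the fold and p threshold. Their median log2 fold change was 1.07. Ighg2b was at 1.86, 3.10 and 2.04 CPM with the vector and at 13.0, 4.85 and 2.60 CPM with circEZH2_005 (adjusted p = 0.145). Ighg1 had the opposite sign, with 5.96, 2.34 and 2.53 CPM against 2.09, 1.33 and 2.37 CPM (log2 fold change -0.90 ± 0.41, adjusted p = 0.236).

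The list of plasma cell genes did not move as a block. Of 13 tested, 1 was higher at an adjusted p under 0.05 and 0 were lower, and the median log2 fold change was 0.088. The log2 fold change was above 0 for 7 genes and below 0 for 6. Past the fold and p threshold 2 were higher, Prdm1 and Slamf7, and 0 lower. Slamf7 had a log2 fold change of 1.73 ± 0.63 (adjusted p = 0.149), and its groups overlapped. The gene past the adjusted test was Prdm1. It encodes BLIMP1, a repressor that drives plasma cell formation and is also made by T cells and gut epithelium. It was at 4.54, 7.53 and 4.66 CPM with the vector and at 25.2, 30.2 and 19.4 CPM with circEZH2_005. The log2 fold change came to 2.16 ± 0.25, at an adjusted p = 0.013. The call was lost without vector sample 1 (adjusted p = 0.0662), vector sample 3 (adjusted p = 0.0838) or circEZH2_005 sample 2 (adjusted p = 0.0564). Unlike the 9 members, Prdm1 was highest in circEZH2_005 sample 2. The most abundant genes of the list serve the secretory pathway of many cells. Xbp1 lay between 208.4 and 215.1 CPM with the vector and between 174.5 and 185.1 CPM with circEZH2_005 (log2 fold change -0.22 ± 0.07, adjusted p = 0.127). Txndc5, a folding enzyme, had a log2 fold change of -0.18 ± 0.08 (adjusted p = 0.213).

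In a further list, genes that bring IgA cells to the gut and carry IgA across it moved in both directions. Of 11 tested, 1 was higher and 1 lower at an adjusted p under 0.05, and the median log2 fold change was 0.79. The log2 fold change was above 0 for 6 genes and below 0 for 5. Past the fold and p threshold 4 were higher, Tnfsf13b, Itgb7, Ccr9 and Itga4, and 0 lower. Itgb7 had a log2 fold change of 1.96 ± 0.46 (adjusted p = 0.0582) and Ccr9 of 1.63 ± 0.38 (adjusted p = 0.0573). Itga4 had 1.35 ± 0.47 (adjusted p = 0.137). Tnfsf13b, which encodes the B cell survival factor BAFF, was at 2.68, 4.31 and 3.01 CPM with the vector and at 13.1, 15.0 and 13.2 CPM with circEZH2_005. It rose by a log2 fold change of 2.05 ± 0.21 (adjusted p = 0.00844), and its 3 circEZH2_005 samples were close to each other. Without vector sample 3 the adjusted p was 0.0602, and the call held without any other sample. Ccl28, an epithelial chemokine that draws IgA plasma cells, was at 122.3, 113.8 and 119.5 CPM with the vector and at 80.4, 62.4 and 81.2 CPM with circEZH2_005. It fell by 0.67 ± 0.11 on the log2 scale (adjusted p = 0.0306), a call that held when vector sample 2 or circEZH2_005 sample 1 was left out and was lost without any other sample (adjusted p up to 0.13). Pigr, the epithelial receptor that carries IgA to the lumen, lay between 4981 and 5652 CPM with the vector and between 4116 and 5392 CPM with circEZH2_005 (adjusted p = 0.403). The gut-homing chemokine Ccl25 lay between 425.0 and 492.6 CPM and between 292.0 and 429.3 CPM (adjusted p = 0.322).

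T cell and pan-leukocyte markers had higher levels in every circEZH2_005 sample, though none passed the adjusted test, while the myeloid sums of the groups overlapped. Summed over the 9 members, the level was 57.9, 110.6 and 60.3 CPM for vector samples 1 to 3 and 416.8, 184.4 and 90.7 CPM for circEZH2_005 samples 1 to 3. Vector sample 2 thus exceeded circEZH2_005 sample 3. For the 10 T cell markers the sums were 103.0, 382.7 and 122.7 CPM and 1028, 801.0 and 584.8 CPM, and the groups did not overlap. T cell markers were higher past the fold and p threshold for 10 of 10 genes, with a median log2 fold change of 1.94, and 0 of the 10 passed the adjusted test. None was at 0 in any sample, and the most abundant was Gzma, at 59.4 to 237.2 CPM with the vector and 366.0 to 671.3 CPM with circEZH2_005. Of 7 pan-leukocyte markers 7 passed the fold and p threshold and 0 the adjusted test, with sums of 61.2 to 202.1 CPM against 266.2 to 482.5 CPM. Among 10 myeloid markers 1 passed the fold and p threshold and 0 the adjusted test, with sums of 33.5 to 46.2 CPM against 45.6 to 73.1 CPM. All 17 T cell and pan-leukocyte markers had all circEZH2_005 samples above all vector samples, while 3 of the 9 members had. Of all genes tested, 16.4% had. The part of leukocyte content in the differences of the 9 genes was not tested.

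**Figure D4:**
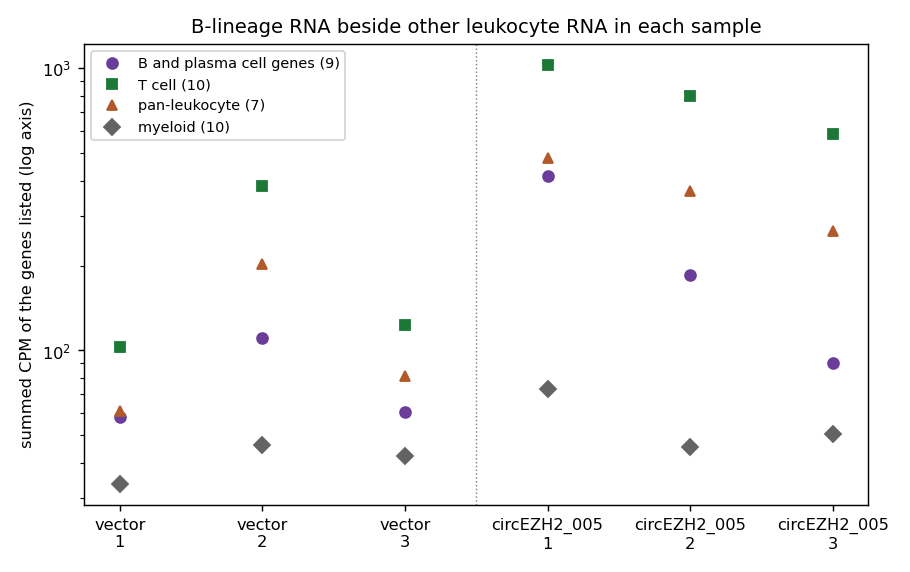
Summed CPM per sample on a log axis for the 9 B and plasma cell genes (circles), 10 T cell markers (squares), 7 pan-leukocyte markers (triangles) and 10 myeloid markers (diamonds). The T cell and pan-leukocyte sums separate the groups, whereas the B and plasma cell sum of 90.7 CPM in circEZH2_005 sample 3 lies below that of 110.6 CPM in vector sample 2.

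The B and plasma cell RNA was also set against other RNA of the same sample, and its place depended on the denominator. Against T cell, pan-leukocyte and Ptprc levels it was not higher on average with circEZH2_005, and against myeloid and epithelial levels it was. Against epithelial levels only circEZH2_005 sample 1 lay above vector sample 2. B cells themselves express the pan-leukocyte genes, Ptprc included. These quotients were chosen after the values were seen and were given no test. The members' sum over the T cell sum was 0.562, 0.289 and 0.492 for vector samples 1 to 3 and 0.405, 0.23 and 0.155 for circEZH2_005 samples 1 to 3. Over the pan-leukocyte sum it was 0.946, 0.547 and 0.742 with the vector and 0.864, 0.504 and 0.341 with circEZH2_005. The B cell receptor and surface genes Cd79a, Cd79b and Ms4a1 together came to 0.0921, 0.055 and 0.0641 of the Ptprc level with the vector and to 0.0619, 0.0465 and 0.0375 of it with circEZH2_005. The secreted antibody genes Igha, Igkc and Jchain came to 2.21, 1.23 and 1.59 times Ptprc with the vector and to 2.08, 1.20 and 0.769 times with circEZH2_005. In each of these 4 quotients the lowest sample was circEZH2_005 sample 3 and the highest was vector sample 1. Over the myeloid sum the members were at 1.73, 2.40 and 1.43 with the vector and at 5.70, 4.05 and 1.79 with circEZH2_005, where sample 3 lay below vector sample 2. Over the epithelial sum the members were at 0.00748, 0.0149 and 0.00791 with the vector and at 0.0436, 0.0145 and 0.00863 with circEZH2_005.

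The genes nearest in profile to the members over the 6 samples included other antibody genes and receptors of leukocytes. Likeness was the root mean square difference of log2 CPM after each gene was centred on its own mean, over all genes tested. Nearest to the mean of Cd79a, Cd79b and Ms4a1 were Hrh2, a histamine receptor (0.17), Ccr2, a chemokine receptor of monocytes (0.184), Il10ra, a chain of the IL-10 receptor (0.194), the nuclease gene Dnase1l3 (0.207) and the T cell receptor segment Trbv13-3 (0.217). Nearest to the mean of Jchain, Mzb1, Igha and Igkc were the kappa variable segment Igkv1-110 (0.0956) and Ighg2b (0.119). Nr4a3, an early gene of lymphocyte activation (0.145), Cd27, a receptor of memory lymphocytes (0.198), and Ighg2c (0.208) followed. Igkv1-110 had 113, 188 and 137 counts for vector samples 1 to 3 and 887, 350 and 181 for circEZH2_005 samples 1 to 3. These genes were picked for their likeness among 18348, so it is a description.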

How the data were processed

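RNA was sequenced from 3 vector and 3 circEZH2_005 samples after oligo(dT) selection. The authors deposited read counts and FPKM values (fragments scaled for gene length and library size) for each gene of mm10. The submitters' processing notes name cutadapt 1.9, HISAT2 2.0.4, StringTie 1.3.4d and DESeq2. Columns headed NC were taken as the vector group, the only control in the labels. The labels do not say whether replicates were separate cultures or animals, so p-values measure the spread between these samples, which may be technical.

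Counts were analysed in R 4.3.3 with the edgeR 4.0.16 quasi-likelihood test after filterByExpr and TMM scaling, with Benjamini-Hochberg adjustment over 18348 genes. DESeq2 1.42.0 and limma 3.58.1 on log2(FPKM + 1) and log2(FPKM + 0.1), over genes whose mean reached 0.5 FPKM, were alternatives, as were median-of-ratios scaling, no filter, a replicate block and leaving out each sample. The fits were tested on simulated data. Ratios were compared by two-sided exact permutation tests (scipy 1.17.1). Positions and overlaps were checked against GENCODE M21, which held 28678 of the identifiers.

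The members and lists were chosen with earlier results of these data known. Of each list the text names the genes with an adjusted p under 0.05 (up to 4, by p), the 2 of highest mean CPM and defining markers. Of genes like the members it names the 5 nearest to each of 2 mean profiles. Genes named beyond this rule were chosen after their values were seen.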

Additional observations from a re-analysis of the deposited data

How the results depend on the processing

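Over 12 alternatives the 9 genes gave 102 log2 fold changes, of which 97 kept their direction and their side of an adjusted p of 0.05. Without circEZH2_005 replicate 1, 2 reversed, to -0.129 for Ms4a1 and -0.053 for Ighm, where leaving out a sample gave -0.129 to 2.05 for Ms4a1 and -0.053 to 0.743 for Ighm. Cd79b passed with DESeq2 (1.43, adjusted p = 0.00128) and without vector replicate 2 (1.70, adjusted p = 0.0335), and Pou2af1 with DESeq2. The members at an adjusted p under 0.05 numbered 2 with DESeq2 and 0 to 1 when a sample was left out. Those past the fold and p threshold, 5 of 9, numbered 2 with limma on log2(FPKM + 1) and 3 on log2(FPKM + 0.1), where only 6 members had the minimum FPKM. They numbered 3 to 7 when a sample was left out, being 3 without vector replicate 1, vector replicate 3 or circEZH2_005 replicate 1. Calls among the other B-lineage genes, 1 higher, numbered 12 with DESeq2 and 0 to 6 when a sample was left out. They were 0 without vector replicate 1, vector replicate 3 or circEZH2_005 replicate 2, 6 without vector replicate 2 and 2 without circEZH2_005 replicate 1. Calls over all genes, 674, numbered 169 with no filter, 2272 with DESeq2 and 28 to 1432 when a sample was left out.

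Same-numbered samples did not deviate together (correlations -0.14, -0.02 and 0.04), so the numbers were not taken as pairs. With a replicate block, 277 genes were called, 0 of them members, and 4 members passed the fold and p threshold, with log2 fold changes of 1.49 for Cd79b, 1.65 for Jchain, 1.53 for Igha and 1.19 for Igkc.

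Counts as low as 18 for Pou2af1, 21 for Ms4a1, 22 for Cd79a and 27 for Mzb1 in a vector sample limit the precision there. The same holds for the 25 counts of Ms4a1 in circEZH2_005 sample 3.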

Other observations

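Germinal centre genes, active where B cells mature in the lymphoid follicles of the gut, were listed apart. Of 7 tested, 0 passed the adjusted test and 1 was higher past the fold and p threshold, with a median log2 fold change of 0.057. The most abundant, Fas, a death receptor also made by epithelium, was at 16.6, 18.7 and 14.6 CPM with the vector and at 20.7, 37.3 and 26.3 CPM with circEZH2_005 (log2 fold change 0.76 ± 0.21, adjusted p = 0.0858 by edgeR). Bcl6, the master factor of germinal centre B cells, lay between 7.36 and 9.43 CPM in all 6 samples.

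In the epithelium that covers such follicles, M cell genes gave 4 tested genes, of which 0 passed the adjusted test and 1 was lower past the fold and p threshold. The median log2 fold change was -0.25. The chemokine Ccl9 had a log2 fold change of -0.75 ± 0.16 (adjusted p = 0.0508) and Marcksl1 of 0.24 ± 0.20 (adjusted p = 0.518). Gp2, the receptor that defines mature M cells, had at most 0.228 CPM.

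Of 8 stromal genes tested 1 was higher at an adjusted p under 0.05, Pecam1, which endothelial cells and leukocytes share (log2 fold change 1.93 ± 0.36, adjusted p = 0.0377). The median of the list was -0.009, and Col3a1 had -0.13 ± 0.55 (adjusted p = 0.917). Of 8 epithelial genes 2 were higher at an adjusted p under 0.05, Krt20 (1.18 ± 0.17) and Krt8 (0.57 ± 0.10), both keratins, while Vil1 had 0.57 ± 0.19 (adjusted p = 0.124). Of 8 crypt stem cell genes 3 were lower at that threshold, Lgr5 (-0.88 ± 0.17), Smoc2 (-0.81 ± 0.11) and Rgmb (-0.58 ± 0.09), and the abundant Olfm4 had -0.42 ± 0.23 (adjusted p = 0.314). Each of these calls of stromal, epithelial and stem cell genes was lost when vector sample 1 or vector sample 3 was left out. Among the fits with 1 sample left out, Lgr5 and Pecam1 were called only without vector sample 2. Krt8, Smoc2 and Rgmb were called only without vector sample 2 or without circEZH2_005 sample 1. The call of Krt20 was kept when any other sample was left out.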
